A study of Caenorhabditis elegans with 6 samples.

Results

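Transthyretin-like proteins are small secreted proteins of nematodes whose fold resembles that of transthyretin, the vertebrate carrier of thyroid hormone and retinol. The family is large in C. elegans and in parasitic worms, where its members are common among secreted proteins, and for most of them no function is known. TTR-52 is an exception: it is secreted, binds phosphatidylserine exposed on dying cells and bridges them to the receptor CED-1 on the cell that engulfs them. TTR-33 is known for protecting dopamine neurons against oxidative damage.

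The genes were taken by name: every gene whose symbol in the array annotation begins with ttr-, measured by a probe set that lists this gene alone. Where a gene had several, the one with the highest mean over the 6 arrays stood for it. This gave 40 genes of 17118 with such a probe set. All 40 were found under the same gene number and symbol in the RefSeq gene table of the WBcel235 assembly, which names 59 ttr genes, 1 of them a pseudogene. Of the other 19, 6 are listed only on 3 probe sets that name a pair of ttr genes each: ttr-3 with ttr-4, ttr-30 with ttr-59 and ttr-40 with ttr-49. For the remaining 13, namely ttr-7, ttr-11, ttr-33, ttr-34, ttr-36, ttr-38, ttr-41, ttr-42, ttr-43, ttr-45, ttr-55, ttr-57 and ttr-58, the annotation lists no probe set, so TTR-33 could not be followed. Only ttr-24 has a second probe set of its own, and 6 genes, among them ttr-15, ttr-50 and ttr-51, are represented by a probe set with the Affymetrix suffix _s_at, which marks probes shared by several transcripts.

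The study exposed synchronised adult worms to the anthelmintic albendazole, a benzimidazole that binds β-tubulin, at 300 µg/ml in medium with 1.5% DMSO by volume (ABZ, 3 samples), or to 1.5% DMSO alone (3 samples), in both cases for 4 h. All worms, controls included, were of strain CB3474 with genotype ben-1(e1880)III, a mutation in the β-tubulin gene whose loss makes C. elegans resistant to benzimidazoles, and no strain without it was measured. Before the exposure, L1 larvae had been raised in liquid at 20 °C for 70 h, and RNA came from whole animals. Replicates are described as biological, 1 array each. Because RNA came from whole worms, fewer cells of a type and less RNA per cell cannot be told apart.

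DMSO replicate 1 stood apart: its log2 values had an SD of 1.73 over the probe sets, against 1.98 to 2.02 on the other arrays, and its correlation with them did not exceed 0.943, while the others reached 0.996. Its dim probe sets read high and its bright ones low, and the fold changes below are given with and without it. Markers of neurons, body muscle, intestine, epidermis and germ line, 5 genes each, all had a probe set, with mean signals of 7.22 to 14.72, and no gene of these lists passed the test between groups. The summed neuron markers were higher on each albendazole array, at log2 12.61 to 12.82, than on the DMSO arrays, at 12.06 to 12.60, or 12.53 to 12.60 without DMSO replicate 1, though the nearest values of the groups nearly met. All 5 had a positive fold change, with a median of 0.28, or 0.16 without that array. The log2 values were 0.73 for unc-18, 0.57 for ric-4, 0.28 for snb-1, 0.22 for unc-119 and 0.003 for rab-3. Without that array they were 0.47, 0.33, 0.04, 0.015 and 0.16. Only in unc-18 did the groups not overlap. The mean signals of the 5 ran from 8.77 to 11.75, and snb-1, the brightest, weighs most in their sum. Of all genes with a mean signal above log2 8.69, 90.4% had a positive fold change. The sums of the other 4 lists overlapped between the groups. The sperm markers msp-3 and msp-31, which encode the major sperm protein, differed between replicates rather than between groups: msp-3 read 12.75 in ABZ replicate 1 and 12.49 in DMSO replicate 1, and no more than 10.87 on any other array. The other measured sperm markers followed this less or not at all. For ssp-10 the values were 10.45, 9.23 and 9.27 with albendazole, against 9.70, 9.44 and 9.30 with DMSO. For spe-9 they were 7.44, 7.44 and 7.48, against 8.33, 7.60 and 7.43, so only DMSO replicate 1 was high. The sum over the 4 sperm markers measured of 5 ranged from log2 12.04 to 14.12 with albendazole and from 11.84 to 13.75 with DMSO. In that sum the bright msp genes weigh most. The part of neuron and sperm RNA in the values below was not tested.

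The family covered nearly the whole range of the arrays. Mean log2 signals of the 40 genes ran from 5.47 to 13.98 with a median of 9.30, against a median of 7.64 over all 17118 genes, and 27 of the 40 lay above that value. Probe sets bind with different strength, so the signal of one gene is not a measure of its transcript number relative to another gene, and the table holds no detection calls.

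**Figure D1:**
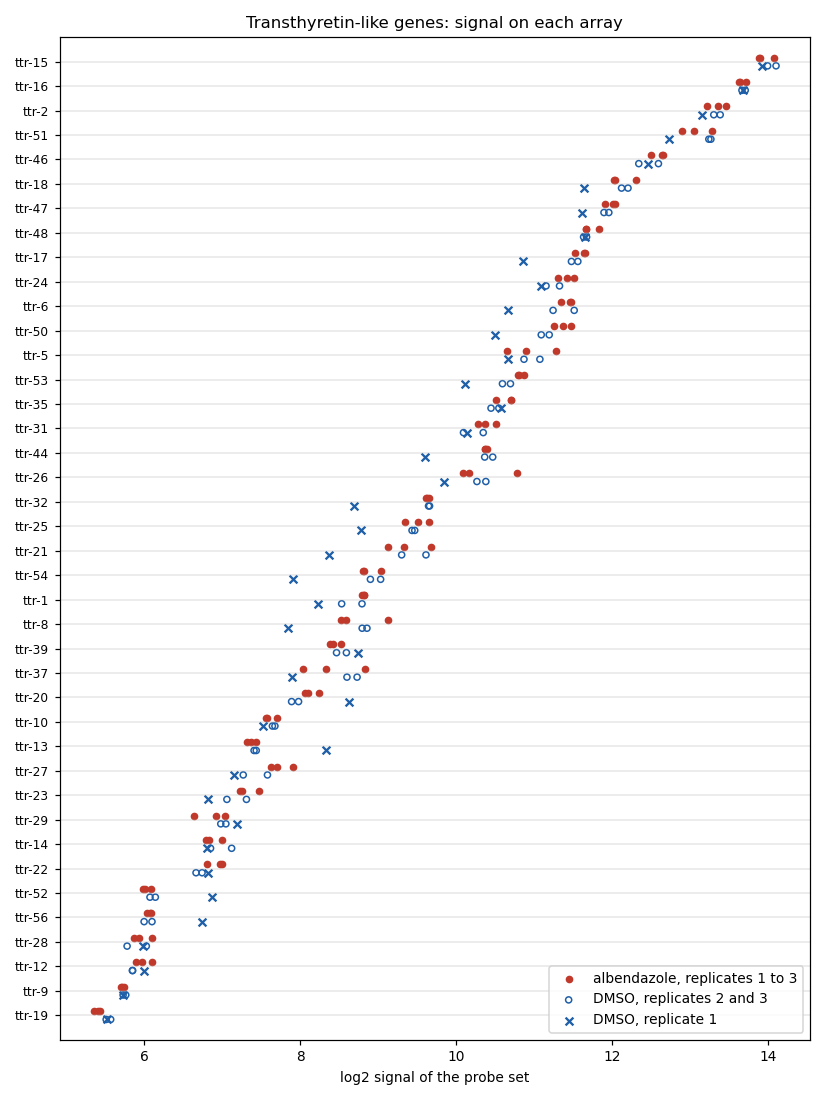
Log2 signal (horizontal axis) of each of the 40 transthyretin-like genes (rows, by mean signal) on each array: filled points are the 3 albendazole samples, open points DMSO replicates 2 and 3, crosses DMSO replicate 1. The groups overlap in all rows but those of ttr-27, ttr-50, ttr-53, ttr-1 and ttr-19, and the cross of DMSO replicate 1 lies to the left of the other points in 21 rows.

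The brightest probe set of the family was that of ttr-15, at 13.89, 14.07 and 13.89 in albendazole samples 1 to 3, against 13.92, 14.10 and 13.99 in DMSO samples. That of ttr-16 read 13.72, 13.63 and 13.62 with albendazole, against 13.67, 13.66 and 13.70 with DMSO. These are 2 flat rows: the groups overlapped in both genes, and the SD of ttr-16 over all arrays was 0.037. Next came that of ttr-2, at 13.22, 13.46 and 13.35 with albendazole, against 13.15, 13.38 and 13.30 with DMSO. That of ttr-51 gave 12.90, 13.27 and 13.04 with albendazole, against 12.72, 13.26 and 13.24 with DMSO, and that of ttr-46 gave 12.65, 12.64 and 12.50, against 12.46, 12.59 and 12.34. The log2 fold changes of these 5 bright genes, albendazole minus DMSO, lay between -0.05 for ttr-15 and 0.13 for ttr-46. Without DMSO replicate 1 they were -0.09 for ttr-15, -0.03 for ttr-16, 0.00 for ttr-2, -0.18 for ttr-51 and 0.13 for ttr-46.

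At the dim end, ttr-19 had the lowest signal of the family, at 5.41, 5.35 and 5.44 with albendazole, against 5.53, 5.51 and 5.57 with DMSO. The next, ttr-9, read 5.74, 5.71 and 5.70 with albendazole, against 5.72, 5.77 and 5.73 with DMSO, and its SD of 0.022 over the 6 arrays was the smallest in the family. The values of ttr-12 and ttr-28 overlapped each other, with group means of 5.99 ± 0.10 and 5.97 ± 0.12 with albendazole, against 5.90 ± 0.09 and 5.93 ± 0.13 with DMSO (SD, n = 3 each). Signals this close to the bottom of the table, whose lowest value is 4.89, do not show whether the transcript was present, which was not tested. On ttr-56, DMSO replicate 1 alone was high, at 6.74, while the other DMSO arrays read 6.10 and 6.0002 and the albendazole arrays 6.08, 6.03 and 6.08.

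Albendazole was set against DMSO to find what a few hours of the drug change in worms that carry the ben-1 mutation. No transthyretin-like gene passed. In limma's moderated test with Benjamini-Hochberg adjustment over all 22548 probe sets, 0 of the 40 genes were called at an adjusted p under 0.05, where 0% of all probe sets were called; the adjusted p of the members ran from 0.651 to 0.994. At an unadjusted p under 0.05, 1 member was higher with albendazole and 0 were lower, or 2.5% higher, against 1.52% higher and 0.341% lower over all probe sets. All changes were small: the log2 fold changes lay between -0.35 (ttr-13) and 0.44 (ttr-50), none beyond 0.5 in size, a size that 6.11% of all genes exceeded, or 1.62% without DMSO replicate 1, where the members lay between -0.27 and 0.32. The 95% confidence intervals of 37 of the 40 genes stayed inside a 2-fold change in either direction; those of ttr-21, ttr-8 and ttr-54 reached above it, to log2 1.11, 1.03 and 1.02.

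Of the 40 genes, 26 had a positive and 14 a negative fold change, a positive share of 65% against 52.2% over all genes. The median log2 fold change was 0.12 in the family and 0.02 over all genes. Without DMSO replicate 1, 21 of 40 were positive, or 52.5%, against 41.4% of all genes. The median was then 0.01, against -0.02 over all genes, and 9 members changed sign, 7 of them to negative and 2 to positive. Without ABZ replicate 2 the median was 0.05. After quantile normalization 20 of the 40 were positive and after cyclic loess 19, or 50% and 47.5%, against 49.0% and 49.8% of all genes, with medians of 0.00 and -0.01. A shift of all arrays to 1 median, which moves every gene alike, left 29 positive, or 72.5%, against 54.6% of all genes.

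**Figure D2:**
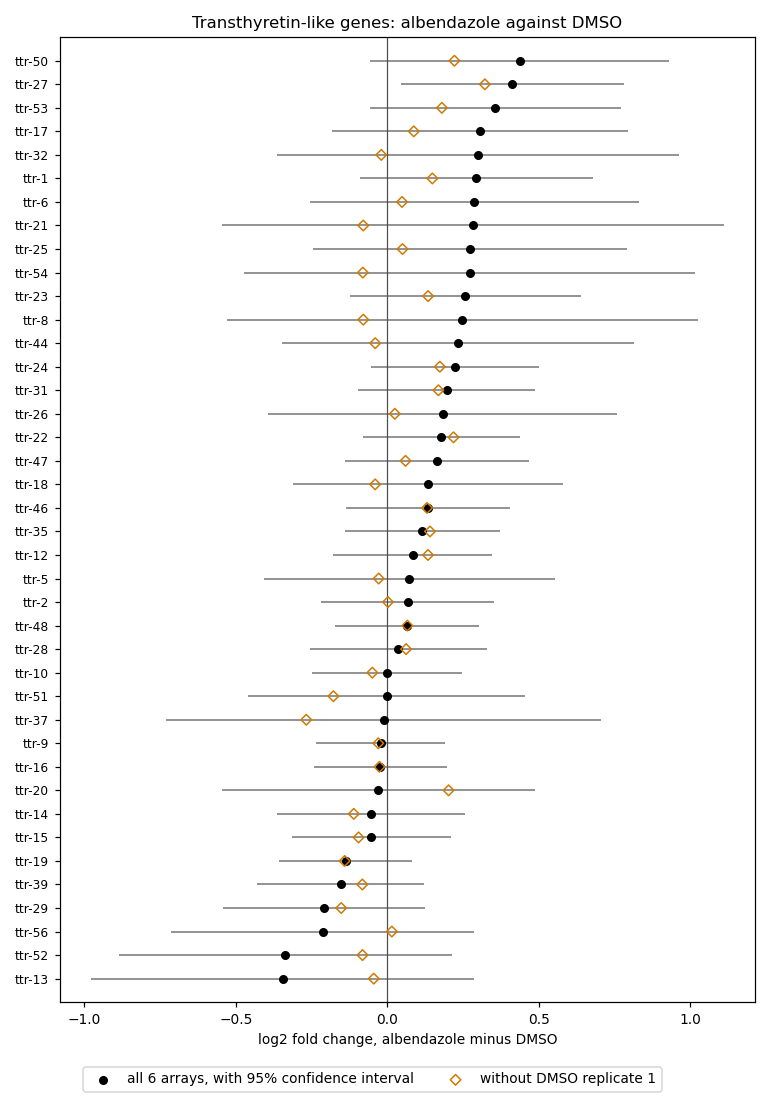
Log2 fold change, albendazole minus DMSO, of the 40 transthyretin-like genes (rows). Black points with lines are the values from all 6 arrays with their 95% confidence intervals, and open diamonds the values without DMSO replicate 1; the interval of ttr-27 alone lies to one side of 0, and the diamonds lie between -0.27 and 0.32.

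The groups did not overlap in 5 members, or 12.5% of the family, against 17.9% of all probe sets. In 4 of them albendazole was the higher group and in 1 the lower, or 10% and 2.5%, against 7.81% and 10.1% of all probe sets. The 4 were ttr-27, ttr-50, ttr-53 and ttr-1. For ttr-27 (NCBI gene 179769, chromosome V) the signal was 7.70, 7.91 and 7.63 with albendazole, against 7.15, 7.58 and 7.27 with DMSO. Its lowest albendazole value thus cleared its highest DMSO value by a narrow margin, with DMSO replicate 2 the nearest. The fold change was 1.33 (log2 0.41, SE 0.15, unadjusted p 0.0335, adjusted p 0.651), and log2 0.32 without DMSO replicate 1.

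Albendazole samples gave ttr-50 (gene 178092, chromosome IV) a signal of 11.37, 11.25 and 11.47, against 10.49, 11.09 and 11.19 in DMSO samples. DMSO replicate 1 was far the lowest, and DMSO replicate 3 came close to the lowest albendazole value; the log2 fold change of 0.44 (SE 0.20, adjusted p 0.651) became 0.22 without that array. A like spread was seen for ttr-53 (gene 177892, chromosome IV), at 10.79, 10.87 and 10.80 with albendazole, against 10.11, 10.59 and 10.69 with DMSO. Its log2 fold change was 0.36 (SE 0.17), and 0.18 without DMSO replicate 1. The albendazole values of ttr-1 (gene 186958, chromosome III) were the tightest of the 4, at 8.79, 8.82 and 8.82, against 8.23, 8.79 and 8.53 with DMSO. DMSO replicate 2 all but touched them, and the log2 fold change was 0.29 (SE 0.16), or 0.15 without DMSO replicate 1.

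The gene ttr-24 (gene 180209, chromosome V) was read by 2 probe sets, which pointed the same way. The brighter carries the suffix _s_at and the dimmer does not, and the counts of members rest on the brighter alone. The brighter, which represents the gene, stood at 11.42, 11.51 and 11.31 with albendazole, against 11.09, 11.32 and 11.15 with DMSO. Its log2 fold change was 0.22 (SE 0.11, adjusted p 0.651) with overlapping groups. The dimmer stood at 10.78, 10.72 and 10.65 with albendazole, against 10.16, 10.41 and 10.40 with DMSO, a log2 fold change of 0.39 (SE 0.11, unadjusted p 0.0132, adjusted p 0.651) without overlap. Without DMSO replicate 1 they had 0.17 and 0.31.

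These higher members depended on the scaling to different degrees. After quantile normalization and cyclic loess the log2 fold change was 0.45 and 0.45 for ttr-27 and 0.23 and 0.22 for ttr-50. It was 0.13 and 0.12 for ttr-53 and 0.18 and 0.13 for ttr-1. For the brighter probe set of ttr-24 it was 0.03 and 0.02.

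Among the members lower with albendazole, the 5 smallest p values belonged to ttr-29, ttr-19, ttr-52, ttr-39 and ttr-13, and none passed. Only ttr-19 had groups that did not overlap, with the values given above; its log2 fold change was -0.14 (SE 0.09, adjusted p 0.651) and -0.14 without DMSO replicate 1, at a signal near the bottom of the scale. Values of ttr-29 (chromosome V) were 6.64, 7.03 and 6.92 with albendazole, against 7.19, 6.98 and 7.05 with DMSO, with a log2 fold change of -0.21, or -0.15 without DMSO replicate 1 and -0.10 without ABZ replicate 1. Those of ttr-39 were 8.39, 8.53 and 8.42 with albendazole, against 8.75, 8.59 and 8.47 with DMSO, with -0.15, or -0.08 without that array. In both the groups overlapped. The lowest fold change of the family, that of ttr-13, came from 1 array: the gene read 7.32, 7.37 and 7.44 with albendazole, against 8.33, 7.41 and 7.44 with DMSO, so that its log2 fold change of -0.35 (SE 0.26) became -0.04 without DMSO replicate 1. After quantile normalization and cyclic loess the log2 fold change was -0.07 and -0.02 for ttr-19, -0.12 and -0.10 for ttr-29, -0.32 and -0.30 for ttr-39, and -0.405 and -0.32 for ttr-13.

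TTR-52, the bridge between dying cells and their engulfers, gave the same picture. On the arrays ttr-52 (gene 184363, chromosome III) read 6.01, 5.98 and 6.09 with albendazole, against 6.87, 6.14 and 6.08 with DMSO. The albendazole arrays and DMSO replicates 2 and 3 lay close together and overlapped, and DMSO replicate 1 was high. The log2 fold change was -0.34 (SE 0.23, 95% confidence interval -0.885 to 0.21, adjusted p 0.651), and -0.08 without that array. It was -0.23 after quantile normalization and -0.21 after cyclic loess.

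A list of 16 genes linked to the engulfment of dying cells was read beside ttr-52. Of these, 0 passed over all probe sets, with 0 at an unadjusted p under 0.05, also without DMSO replicate 1. The fold change was positive in 15, with a median of 0.31, opposite in sign to ttr-52. Over all genes 52.2% were positive, but 90.4% of those with a mean signal above log2 8.69 and 19.9% of those below 6.86. The mean signals of the 16 ran from 7.85 to 13.81, and that of ttr-52 was 6.20. Whether the contrast in sign goes beyond this difference in signal was not tested. Without DMSO replicate 1, 7 of 16 were positive and the median was -0.01. The receptor gene ced-1 read 8.90, 8.97 and 8.97 with albendazole, against 7.02, 8.74 and 9.18 with DMSO, so its log2 fold change of 0.64 became -0.01 without that array. The 4 with the smallest p values were mig-2 and ced-10, which encode Rac-family GTPases, ced-8, which acts in exposing phosphatidylserine, and ina-1, an integrin α subunit. Their log2 fold changes were 0.30, 0.47, 0.31 and 0.33, and without DMSO replicate 1 they were 0.14, 0.11, 0.06 and 0.15. In mig-2 and ced-10, 2 of the 16, the groups did not overlap, albendazole being higher, as in 7.81% of all probe sets. In 0 of the 16 was albendazole the lower group without overlap, against 10.1% of all probe sets. Besides TTR-52, the secreted lipid-binding protein NRF-5 acts at this step, and nrf-5 had 0.20, or -0.06 without that array; it was chosen after its values were seen.

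The direction of a member's fold change went with its signal. The genes were split into 3 equal parts by mean signal over all 17118 genes, at log2 6.86 and 8.69. In the dim part, 3 of 7 members had a positive fold change, with a median of -0.02, and in the middle part 4 of 11, with a median of -0.01. In the bright part 19 of 22 were positive, with a median of 0.19. Over all genes the shares were 19.9%, 46.5% and 90.4%, with medians of -0.12, -0.02 and 0.21, so the share among the bright members was no higher than among bright genes in general.

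Without DMSO replicate 1 the medians of the members were 0.01, -0.05 and 0.04, and those of all genes -0.04, -0.02 and 0.00. Of the members, 4 of 7, 4 of 11 and 13 of 22 were then positive, against 29.2%, 44.0% and 50.9% of all genes. In the bright part DMSO replicate 1 lay below the mean of the other arrays by a median of -0.45 in members and -0.60 in all genes, and it held the lowest of the 6 values in 15 of the 22 members. Across the 40 genes the correlation of fold change with mean signal was 0.32 (Pearson) and 0.29 (Spearman), and 0.05 and 0.10 without that array; over all genes it was 0.47 and 0.57, and 0.12 and 0.16. These are descriptions across genes read on the same arrays, and genes are not independent replicates.

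**Figure D3:**
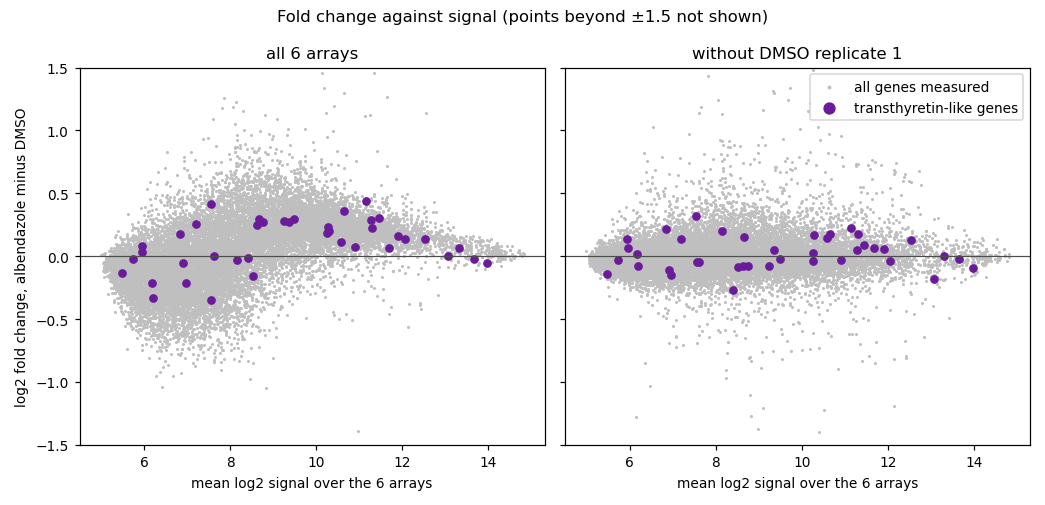
Log2 fold change, albendazole minus DMSO, against mean log2 signal for all 17118 genes (grey) and the 40 transthyretin-like genes (purple), with all 6 arrays on the left and without DMSO replicate 1 on the right. On the left bright genes of both kinds lie mostly above 0; on the right the members scatter between -0.27 and 0.32.

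With DMSO replicate 1 left out, the array furthest from the others, the fold changes of the members had smaller standard errors. The median SE was 0.087, against 0.157 with all arrays, and all 40 confidence intervals stayed inside a 2-fold change. In that fit 5 members were higher at an unadjusted p under 0.05 and 0 were lower, or 12.5% higher, against 2.97% higher and 2.77% lower over all probe sets. The 5 were ttr-27, ttr-50 and ttr-53 as above, and ttr-22 and ttr-20, which were chosen after their values were seen. Of these, ttr-22 read 6.97, 6.80 and 6.995 with albendazole, against 6.82, 6.74 and 6.67 with DMSO, and its log2 fold change was 0.22 in that fit and 0.18 with all arrays. The other, ttr-20, read 8.06, 8.11 and 8.24 with albendazole, against 8.63, 7.98 and 7.89 with DMSO, and its log2 fold change of -0.03 with all arrays became 0.20 without DMSO replicate 1. None of the 5 passed after adjustment; the smallest adjusted p of any member in that fit was 0.775, and 0% of all probe sets were called.

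Members varied among replicates as well as between groups. The SD over the 6 arrays ranged from 0.022 to 0.472 with a median of 0.229, close to the 0.231 of all genes. The median SD within the albendazole group was 0.104 and within the DMSO group 0.234, against 0.088 and 0.279 over all genes; between DMSO replicates 2 and 3 alone it was 0.071, against 0.059 over all genes. The 3 most variable members were ttr-21, ttr-8 and ttr-54. On ttr-21 the arrays read 9.12, 9.68 and 9.33 with albendazole, against 8.37, 9.61 and 9.30 with DMSO. On ttr-8 they read 8.59, 9.13 and 8.52 with albendazole, against 7.84, 8.79 and 8.86 with DMSO, and on ttr-54 8.81, 9.04 and 8.81, against 7.91, 9.03 and 8.90. In all 3 DMSO replicate 1 was the lowest array and ABZ replicate 2 the highest. Their log2 fold changes of 0.28, 0.25 and 0.27 became -0.08 each without DMSO replicate 1. At the other end, beside ttr-9 and ttr-16, the SD of ttr-48 was 0.071, with 11.66, 11.83 and 11.67 with albendazole, against 11.65, 11.67 and 11.63 with DMSO.

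Replicate 2 read high across much of the family, in both groups. It was the highest of the albendazole arrays for 22 of the 40 members, against 29.5% of all genes, and the highest of the DMSO arrays for 20, against 28.5%. It was the highest in both groups at once in 15 members (37.5%), against 12.7% of all genes. For replicate 1 this held in 2 members (5%, against 11.5% of all genes) and for replicate 3 in 5 (12.5%, against 13.5%). In 10 members ABZ replicate 2 lay more than 0.2 above both other albendazole arrays, a count not made over all genes. These counts are descriptions, and no test was made of them.

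**Figure D4:**
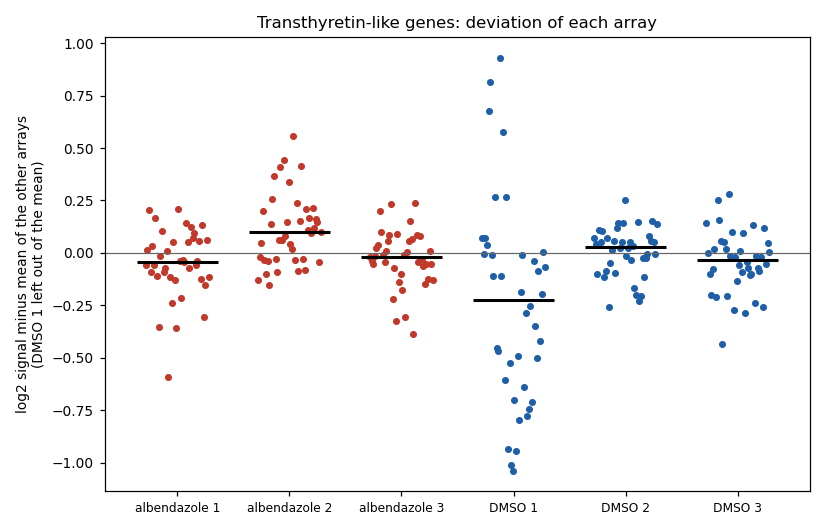
Deviation of each transthyretin-like gene (points) on each array from the mean of the other arrays, DMSO replicate 1 being left out of that mean, on the log2 scale; black bars are medians over the 40 genes. The bars lie at -0.04, 0.10 and -0.02 for ABZ replicates 1 to 3 and at -0.22, 0.03 and -0.03 for DMSO replicates 1 to 3, and DMSO replicate 1 has the widest scatter, from -1.04 to 0.93.

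The members not described singly here or among the neighbours below are ttr-5, ttr-6, ttr-10, ttr-14, ttr-18, ttr-23, ttr-31, ttr-35, ttr-37, ttr-44 and ttr-47. In all 11 the groups overlapped, with log2 fold changes of -0.05 to 0.29, 8 of them positive, and an adjusted p of 0.651 or more; without DMSO replicate 1, which held the lowest value in 7, the range was -0.27 to 0.17, with 5 positive. The lowest of these, ttr-37, was chosen after its values were seen: it read 8.03, 8.83 and 8.33 with albendazole, against 7.90, 8.60 and 8.73 with DMSO, a spread among replicates far wider than the log2 fold change of -0.01 between groups.

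Many ttr genes lie side by side. In the RefSeq gene order of the WBcel235 assembly, 29 of the 59 fall into 12 groups of neighbours with at most 2 other genes between them, and 34 of the 59 lie on chromosomes V and X. Of the measured members, 16 are on V, 9 on IV, 7 on III, 6 on X and 1 each on I and II. In 6 of the groups at least 2 genes were measured, and in 4 of these 6 all measured genes had a positive fold change. A positive fold change was also held by 65% of all members and by 19 of the 22 members in the bright part. Whether neighbours changed together was not tested. The genes below are named by their position. On chromosome V, ttr-24, ttr-25 and ttr-26 had log2 fold changes of 0.22, 0.27 and 0.18, and 0.17, 0.05 and 0.02 without DMSO replicate 1. The other trio on V, ttr-27, ttr-28 and ttr-29, spread to both sides, with 0.41, 0.04 and -0.21, and 0.32, 0.06 and -0.15 without that array, so neighbours in that trio held both the member with the smallest p among those higher and the one with the smallest p among those lower.

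On chromosome III, ttr-8 and ttr-32 had 0.25 and 0.30, and -0.08 and -0.02 without DMSO replicate 1, and ttr-2 and ttr-1 had 0.07 and 0.29, and 0.00 and 0.15. On chromosome IV, ttr-54 and ttr-53 had 0.27 and 0.36, and -0.08 and 0.18 without it, and ttr-16 and ttr-17 had -0.02 and 0.31, and -0.03 and 0.09. Without that array, 2 of these 4 pairs thus had members of opposite sign. Whether the probe sets of neighbouring genes tell similar transcripts apart was not tested.

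**Figure D5:**
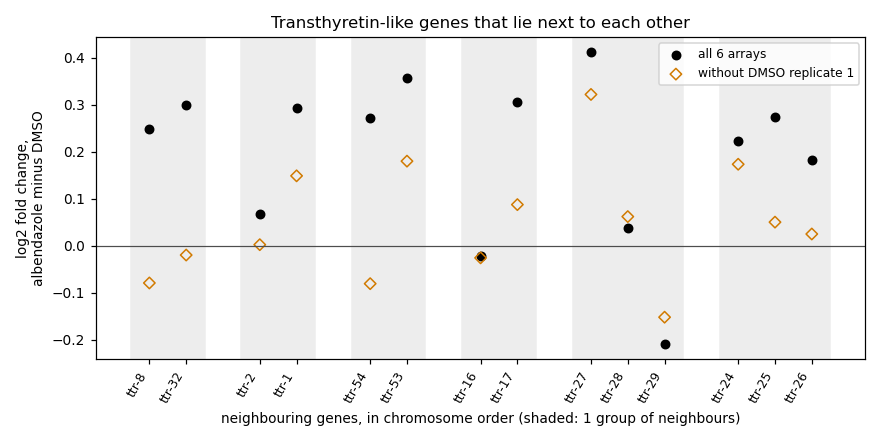
Log2 fold change, albendazole minus DMSO, of transthyretin-like genes that lie next to each other, in chromosome order with 1 shaded block per group of neighbours; black points are all 6 arrays and open diamonds the values without DMSO replicate 1. The block of ttr-27, ttr-28 and ttr-29 spans the widest range, from 0.41 to -0.21.

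The 3 probe sets that name a pair of ttr genes were tested but are not members. Their log2 fold changes were 0.07 for ttr-3 with ttr-4, 0.15 for ttr-30 with ttr-59 and 0.15 for ttr-49 with ttr-40, and -0.18, -0.17 and 0.11 without DMSO replicate 1. The worm also has genes of the transthyretin-related enzyme family, 5-hydroxyisourate hydrolases of purine breakdown, which are not named ttr. Of these, R09H10.3 read 10.91, 10.92 and 10.67 with albendazole, against 10.50, 10.86 and 10.76 with DMSO (log2 fold change 0.13), and ZK697.8 read 5.78, 5.84 and 5.84, against 6.63, 6.001 and 5.69 (-0.28). Neither passed, and without DMSO replicate 1 they had 0.02 and -0.02.

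With ttr-33 not measured, a list of genes around its known role was read. It holds genes of the antioxidant defence and the dopamine neuron genes cat-2 and dat-1, which the counts and medians below include. Of 15 listed genes 13 were measured, the catalase genes ctl-1 and ctl-3 having no probe set that lists the gene alone. Of the 13, 0 passed and 0 had an unadjusted p under 0.05. The fold change was positive in 7, with a median of 0.06, where 52.2% of all genes were positive. Without DMSO replicate 1, 5 were positive with a median of -0.09, where 41.4% of all genes were positive. In that limma fit 1, gst-4, was lower at an unadjusted p of 0.0175 (adjusted p 0.775). Over all probe sets 2.77% were lower and 2.97% higher at an unadjusted p under 0.05. The 4 with the smallest p values were the superoxide dismutase genes sod-5 and sod-2, the glutathione S-transferase gene gst-4 and gcs-1, which encodes the first enzyme of glutathione synthesis. Their log2 fold changes were -0.33 for sod-5, 0.17 for sod-2, -0.44 for gst-4 and 0.25 for gcs-1, and -0.12, 0.00, -0.73 and -0.03 without DMSO replicate 1. Of the same 13, cat-2, which encodes tyrosine hydroxylase, and dat-1, the dopamine transporter gene, had -0.11 and -0.09. Without DMSO replicate 1 they had 0.01 and 0.10.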

How the data were processed

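Total RNA of 3 albendazole and 3 DMSO samples of whole worms, 1 µg each, was hybridised to 1 Affymetrix array per sample, per the labels' protocols. The submitters' processing notes name RMA and limma, without versions or settings. The values deposited by the authors were taken to be log2 signals, a scale inferred from their range of 4.89 to 14.89. Their precision is limited by how many arrays there are.

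Of 22625 probe sets, 77 Affymetrix controls were left out, and 22548 were tested with limma (version 3.58.1; R version 4.3.3): group as the only term, eBayes defaults, two-sided, Benjamini-Hochberg over all 22548, called at an adjusted p under 0.05. Fold changes are albendazole minus DMSO. The platform annotation gave the gene names: 1 gene for 20766 of them, several for 887 and none for 895. Lists were described by counts and medians. The limma fit with default settings was tested on simulated data, with the same noise for all probe sets and arrays.

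The family, the lists and the rule for named genes were chosen with earlier results of these data known. The rule names every called member, the 5 with the smallest p in each direction, the 5 brightest, the 5 dimmest, the 3 most and 3 least variable, ttr-52, and up to 4 genes of each list. Protein and promoter sequences were not used here. The alternatives, with their effect, are given at the end.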

Additional observations from a re-analysis of the deposited data

How the results depend on the processing

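No transthyretin-like gene was called by limma in any of the 16 alternatives that test genes (scaling, weights, block, filters, thresholds, arrays left out); the smallest adjusted p of a member was 0.106, for ttr-53 with array weights, a fit in which DMSO replicate 1 has a weight of 0.0428 and DMSO replicate 2 one of 10.4. Among all probe sets tested, 28 were called with array weights, 5 with gene-by-gene weights and 2 with DMSO replicate 1 left out under the intensity trend and robust settings. The family's median log2 fold change of 0.12 was 0.00063 after quantile normalization, -0.0068 after cyclic loess and 0.0076 with array weights, and ran from 0.0085 (without DMSO replicate 1) to 0.18 with single arrays left out. The number of positive members ran from 21 to 30 with single arrays left out, and was 20 after quantile normalization and 19 after cyclic loess. Over all genes the positive share ran from 41.4% to 53.8% with single arrays left out. Members whose groups do not overlap numbered 5 (12.5%, against 17.9% of all probe sets) and ran from 8 without DMSO replicate 1 (20%, against 25.2%) to 12 without DMSO replicate 3 (30%, against 35.0%), since fewer values have to be separated. With replicate number as a block, the median was 0.12 and 0 members were called, with a smallest adjusted p of 0.645. Deviations of samples of the same number correlated at 0.12, 0.26 and 0.066 across probe sets for replicates 1, 2 and 3, and every sample correlated best with its own number, a hint from the data: the cultures are described as matched, but no label says that equal numbers mark a pair.

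Of the 23 named members, 10 changed sign in at least 1 setting, none of them called in any. After quantile normalization the log2 fold change was -0.0014 for ttr-46, -0.012 for ttr-2, 0.069 for ttr-9 and -0.096 for ttr-48, and after cyclic loess -0.0049, -0.026, 0.10 and -0.12. For ttr-51 it was 0.013 with the arrays shifted to 1 median, and with 1 array left out it reached from -0.18 to 0.092. With array weights it was -0.0020 for ttr-2, -0.018 for ttr-28, -0.11 for ttr-54 and -0.14 for ttr-21, and with gene-by-gene weights -0.063 for ttr-54 and -0.047 for ttr-21. With 1 array left out it ran from -0.037 to 0.086 for ttr-28, from -0.35 to 0.015 for ttr-56, from -0.081 to 0.48 for ttr-54, from -0.079 to 0.43 for ttr-8 and from -0.080 to 0.54 for ttr-21. Without DMSO replicate 1, with or without the trend and robust settings, it was 0.015 for ttr-56, -0.081 for ttr-54, -0.079 for ttr-8 and -0.080 for ttr-21. The cause of these changes was not tested. Signal over background could not be read from the table, which limits the dim members.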
